A study of Mus musculus with 6 samples.

Results

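Progenitor fibroblast markers were read in FAPs (fibro/adipogenic progenitors), stromal cells that lie between the fibres of skeletal muscle, after 2 antisense treatments aimed at the Pdgfra transcript. The set holds 9 genes, chosen by name with earlier results of these data known: Dpp4, Pi16, Cd34, Sema3c, Clec3b, Cd55, Cd248, Mfap5 and Anxa3. Each has 1 probe set that is annotated with its symbol alone, out of 19938 named genes on the array. All 9 were among the 14953 genes tested, and each lay at least 1.91 log2 units above the filter on dim genes (5.209) on every array, so none passed through 1 group alone.

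The cells came from male wild-type C57Bl/6 mice of 8 to 12 weeks, and every animal had the same injury. The tibialis anterior muscles had been injected with 30 µL of 50% glycerol, a chemical injury after which fat and scar tissue form. A vivo-morpholino (VMO), an antisense oligomer with a delivery group that lets it enter cells in the living animal, followed 3 days after the injury, and FAPs were isolated 2 days later. The 3 groups received pA-VMOs against polyadenylation sites, 5'ss-VMO against a 5' splice site, or a control VMO. RNA from a pool of cells of 4 mice went on each array, and there were 2 arrays a group. There was no group without injury or without VMO, and how the cells were sorted is not given in the sources used here. The labels name hindlimb muscle as the source of the cells in one field and tibialis anterior in another.

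Dpp4 and Pi16 are known as surface markers of fibroblasts that lie in the interstitium and around vessels of many mouse tissues. These fibroblasts are regarded as progenitor-like, since in fat and other tissues they can give rise to more specialised fibroblasts and adipocytes. In muscle, single-cell studies have described FAPs with high Dpp4 and Pi16 as one FAP state among several. An array of all sorted cells cannot tell fewer cells of such a state from less RNA per cell.

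Upstream sequence is shown for the members whose arrays with either reagent all lay below both control arrays, so that genes which shifted together can be set side by side. There were 5 such members, Dpp4, Cd34, Sema3c, Clec3b and Cd55. Of all genes tested, 18.8% had both pA-VMO arrays below both control arrays, and 21.5% had both 5'ss-VMO arrays below them. The share of all genes that met both conditions was not counted. The RefSeq table of promoters (GRCm38.p6) matched 5 of the 9 members, which gave 4 sequences to print. Each is the 250 bases before the annotated start of transcription, 5′ to 3′ on the gene's strand. Capitals mark matches on either strand to TATAAA, to the core GGAATG that TEAD factors bind, or to a GC box, GGGCGG. No match overlaps another. The windows are chr2:62412232-62412481 on the minus strand for Dpp4, chr5:17574566-17574815 on the plus strand for Sema3c, chr1:194938571-194938820 on the plus strand for Cd34 and chr1:130462745-130462994 on the minus strand for Cd55.
Dpp4: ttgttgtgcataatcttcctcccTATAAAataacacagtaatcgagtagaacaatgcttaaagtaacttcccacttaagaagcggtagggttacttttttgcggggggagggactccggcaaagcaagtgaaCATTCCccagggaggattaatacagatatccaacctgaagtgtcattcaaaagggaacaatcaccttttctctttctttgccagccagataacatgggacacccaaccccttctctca
Sema3c: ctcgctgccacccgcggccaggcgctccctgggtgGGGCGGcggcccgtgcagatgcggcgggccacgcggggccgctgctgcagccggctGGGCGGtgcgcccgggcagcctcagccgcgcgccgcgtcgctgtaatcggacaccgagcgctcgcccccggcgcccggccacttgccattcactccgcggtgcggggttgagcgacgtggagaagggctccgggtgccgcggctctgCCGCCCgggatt
Cd34: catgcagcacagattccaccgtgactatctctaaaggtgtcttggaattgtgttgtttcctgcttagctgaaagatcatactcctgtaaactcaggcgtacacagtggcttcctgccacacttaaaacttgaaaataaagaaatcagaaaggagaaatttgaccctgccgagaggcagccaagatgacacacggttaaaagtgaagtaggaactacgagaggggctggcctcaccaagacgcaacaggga
Cd55: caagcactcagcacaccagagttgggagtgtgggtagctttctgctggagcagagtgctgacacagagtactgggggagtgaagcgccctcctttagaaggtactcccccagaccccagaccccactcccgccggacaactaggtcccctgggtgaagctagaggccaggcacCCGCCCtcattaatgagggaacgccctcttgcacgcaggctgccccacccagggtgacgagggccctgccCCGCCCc

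The 4 windows differed in composition. The Sema3c window was 78.4% G and C with 39 CpG and held 3 GC boxes, and that of Cd55 was 64.0% G and C with 8 CpG and held 2. The Dpp4 window was 43.6% G and C with 4 CpG, and held 1 TATAAA that begins 227 bases before the start and 1 TEAD core. The Cd34 window, at 46.4% G and C with 6 CpG, held none of these letters, and the AP-1 site TGANTCA was in none of the 4. Of all 32841 upstream windows in the table, 32.7% held a GC box, 12.4% TATAAA, 12.6% the TEAD core and 6.75% the AP-1 site, and the median window was 52.4% G and C. No motif searched was thus shared by the 4 genes.

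Among the surface proteins, Dpp4 was the member that fell, with 5'ss-VMO, and its value with pA-VMO lay near that level. It encodes a membrane peptidase, also called CD26, that trims the ends of chemokines and peptide hormones. Its log2 level was 7.15 and 7.33 on the pA-VMO arrays, 7.12 and 7.23 on the 5'ss-VMO arrays, and 7.75 and 7.64 on the control arrays. All 4 arrays of treated cells lay below both control arrays. Dpp4 fell with 5'ss-VMO by 0.52 ± 0.082 (log2, SE, n = 2 arrays per group; 95% interval -0.70 to -0.33), which is 1.43-fold lower (limma adjusted p = 0.0318). It was the 1 member of 9 called in this comparison, where 0.0803% of all genes tested were called lower and 0.582% in either direction. The call was lost with any of the 4 arrays compared left out (adjusted p = 0.106 to 0.213, difference -0.57 to -0.46) and with no filter on dim genes (adjusted p = 0.0982).

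With pA-VMO the difference of Dpp4 from control was -0.45 ± 0.082 (1.37-fold lower, 95% interval -0.64 to -0.27), and it did not pass the test (limma adjusted p = 0.204). In that comparison 0 members were called by limma, and 0.00669% of all genes, which is 1 gene. At an unadjusted limma p under 0.05 there were 5 members, all lower, where 5.23% of all genes were lower and 6.22% higher. Between the reagents Dpp4 differed by 0.061 ± 0.082 (95% interval -0.12 to 0.25, limma adjusted p = 0.76), and the arrays overlapped. In order of group mean, Dpp4 thus stood lowest with 5'ss-VMO and slightly higher with pA-VMO, a gap within the spread of the arrays, and highest in control cells.

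**Figure D1:**
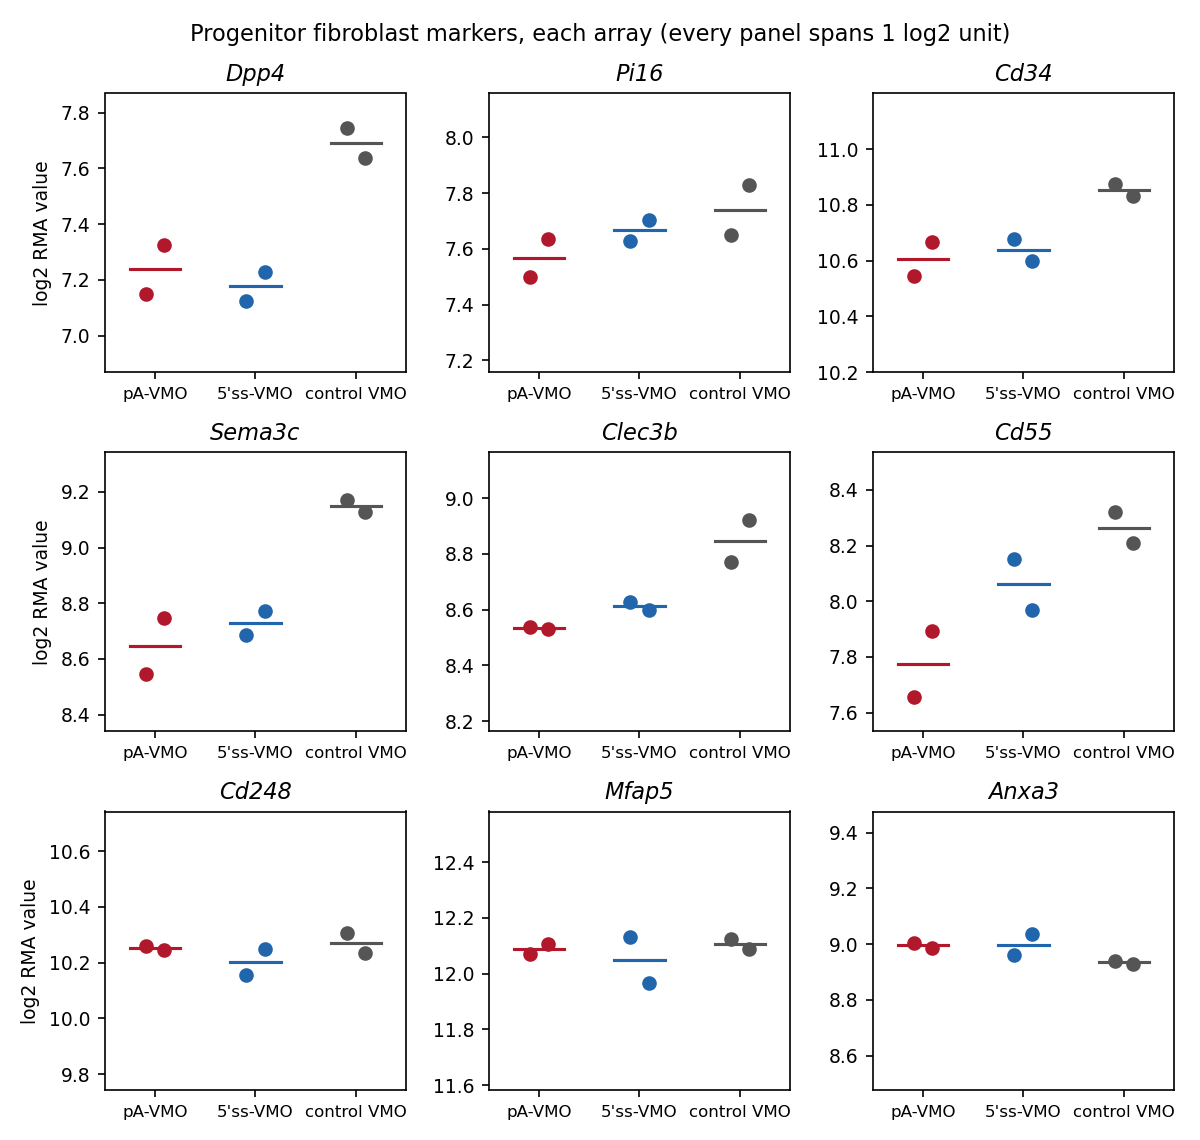
Log2 value of the 9 progenitor fibroblast markers on each array, with pA-VMO, 5'ss-VMO and control VMO from left to right; points are arrays, bars are means of 2 arrays, and each panel spans 1 log2 unit. For Dpp4, Sema3c, Cd34, Clec3b and Cd55 all treated arrays lie below both control arrays, while Cd248 and Mfap5 overlap and Anxa3 lies slightly above control.

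Cd34, a sialomucin on the surface of FAPs, of endothelial cells and of blood progenitors, was lower by a smaller amount. Cd34 stood at 10.54 and 10.67 on the pA-VMO arrays, 10.68 and 10.60 on the 5'ss-VMO arrays, and 10.88 and 10.83 on the control arrays. The treated arrays did not overlap with the control arrays and did overlap with each other. The difference was -0.25 ± 0.071 with pA-VMO (limma adjusted p = 0.284) and -0.21 ± 0.071 with 5'ss-VMO (limma adjusted p = 0.242), neither past the threshold.

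Cd55, or decay-accelerating factor, protects cells from complement. The log2 level of Cd55 was 7.66 and 7.90 on the pA-VMO arrays, 8.15 and 7.97 on the 5'ss-VMO arrays, and 8.32 and 8.21 on the control arrays. The order of the groups was pA-VMO, 5'ss-VMO, control, with no overlap between any 2 of them, though the gap between the nearest arrays of 5'ss-VMO and control was 0.056. Cd55 lay at -0.49 ± 0.097 from control with pA-VMO (1.4-fold lower, 95% interval -0.71 to -0.27, limma adjusted p = 0.204) and at -0.20 ± 0.097 with 5'ss-VMO (1.15-fold lower, 95% interval -0.42 to 0.016, limma adjusted p = 0.392), and the 5'ss-VMO value was -0.11 without 5'ss-VMO replicate 2. The difference of pA-VMO from 5'ss-VMO was -0.29 ± 0.097 (95% interval -0.50 to -0.066), the widest of the 9 members, and did not pass the test (limma adjusted p = 0.213). Without pA-VMO replicate 1 it was -0.17.

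Pi16, a surface member of the CAP family of secreted and membrane proteins, defines the same fibroblast state in many tissues. Pi16 read 7.499 and 7.64 after pA-VMO, 7.63 and 7.71 after 5'ss-VMO, and 7.65 and 7.83 in control cells. Both pA-VMO arrays lay below the control arrays, by a gap of 0.015, and the 5'ss-VMO arrays overlapped with control. The differences from control were -0.17 ± 0.083 with pA-VMO (limma adjusted p = 0.476) and -0.073 ± 0.083 with 5'ss-VMO (95% interval -0.26 to 0.11, limma adjusted p = 0.738). Without control replicate 2 these were -0.083 and 0.016, and without control replicate 1 -0.26 and -0.16. With all arrays the interval with 5'ss-VMO lay wholly above the difference measured for Dpp4, the other defining surface marker.

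Cd248, or endosialin, a transmembrane C-type lectin of stromal cells, was level across the groups within the spread of the arrays. The arrays read 10.26 and 10.25 after pA-VMO, 10.16 and 10.25 after 5'ss-VMO, and 10.31 and 10.24 in control cells. The arrays of all groups overlapped. The 95% intervals of the differences from control were -0.17 to 0.13 with pA-VMO and -0.22 to 0.083 with 5'ss-VMO (limma adjusted p = 0.945 and 0.689).

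The secreted members did not move as one. Sema3c, a semaphorin that signals through neuropilins and plexins, had the widest difference of the 9 with pA-VMO. Its log2 level was 8.55 and 8.75 on the pA-VMO arrays, 8.69 and 8.77 on the 5'ss-VMO arrays, and 9.17 and 9.13 on the control arrays. The treated arrays all lay at least 0.353 below the nearest control array and overlapped with each other. Sema3c lay at -0.50 ± 0.081 with pA-VMO (1.42-fold lower, 95% interval -0.69 to -0.32, limma adjusted p = 0.204) and at -0.42 ± 0.081 with 5'ss-VMO (1.34-fold lower, 95% interval -0.60 to -0.24, limma adjusted p = 0.0707). Neither passed the threshold. By unadjusted p it ranked 10 of 14953 genes with pA-VMO.

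Clec3b encodes tetranectin, a secreted protein that binds plasminogen. It stood at 8.54 and 8.53 after pA-VMO, 8.63 and 8.60 after 5'ss-VMO, and 8.77 and 8.92 in control cells. No arrays of different groups overlapped. Cd55 and Clec3b were the 2 members whose pA-VMO arrays both lay below both 5'ss-VMO arrays, as 23.7% of all genes did. The differences from control were -0.31 ± 0.071 with pA-VMO (limma adjusted p = 0.231) and -0.23 ± 0.071 with 5'ss-VMO (limma adjusted p = 0.216). The pA-VMO group lay below the 5'ss-VMO group by 0.08 ± 0.071 (limma adjusted p = 0.624), which is about the size of its error.

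Mfap5, a glycoprotein of elastin-associated microfibrils, was at 12.07 and 12.11 after pA-VMO, 12.13 and 11.97 after 5'ss-VMO, and 12.13 and 12.09 in control cells. All groups overlapped. The 95% intervals of its differences from control were -0.19 to 0.15 with pA-VMO and -0.23 to 0.11 with 5'ss-VMO (limma adjusted p = 0.952 and 0.769). The lower ends of both lie above the differences measured for Sema3c and Dpp4.

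Anxa3, annexin A3, a calcium-dependent phospholipid-binding protein inside the cell, was the 1 member with a positive difference in both comparisons with control. It stood at 9.003 and 8.99 after pA-VMO, 8.96 and 9.04 after 5'ss-VMO, and 8.94 and 8.93 in control cells. Both treated groups lay above control by a narrow gap, as 24.1% of all genes did after pA-VMO and 23.2% after 5'ss-VMO. The differences were 0.061 ± 0.064 after pA-VMO and 0.064 ± 0.064 after 5'ss-VMO (limma adjusted p = 0.763 and 0.695), no larger than their errors.

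**Figure D2:**
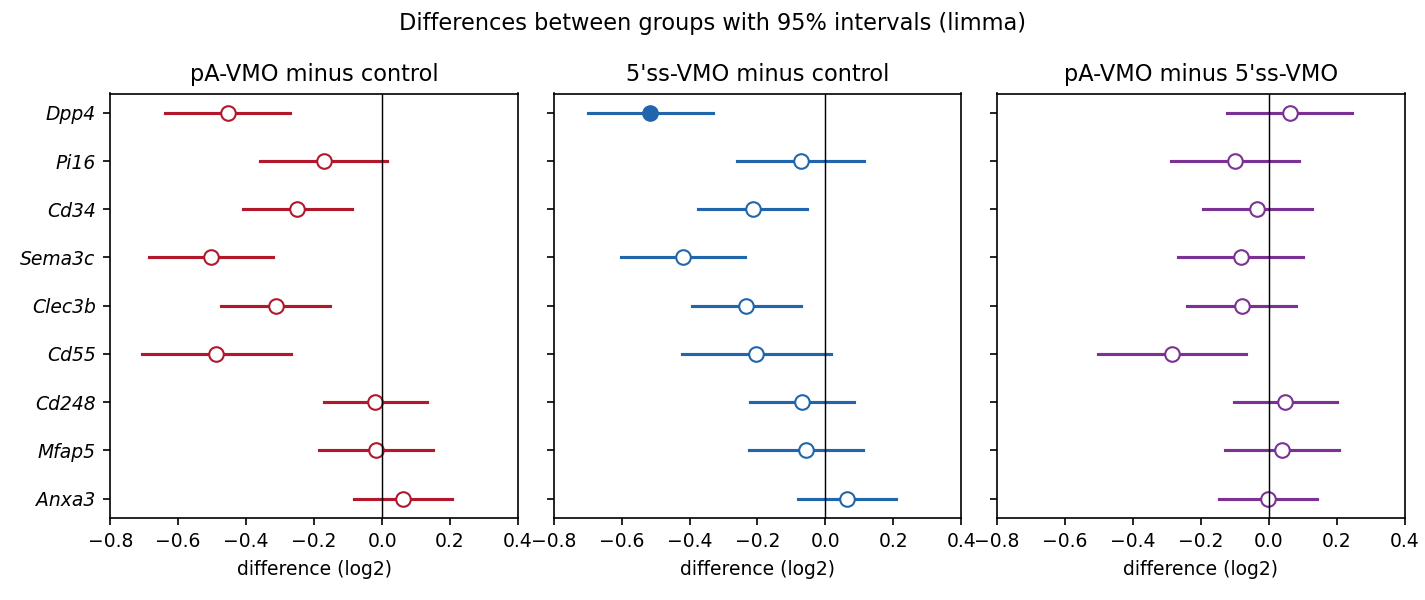
Differences of log2 value for the 9 markers in the 3 comparisons, with 95% intervals from limma (2 arrays per group); a filled point passed an adjusted p of 0.05. Dpp4 with 5'ss-VMO is the filled point, and in the comparison between the reagents the interval of Cd55 alone does not reach 0.

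Counted over the set, 8 of the 9 members had a negative difference from control with pA-VMO, and 8 of 9 with 5'ss-VMO, where 44.8% and 49.6% of all genes tested were negative. With pA-VMO these include Cd248 at -0.02 ± 0.067 and Mfap5 at -0.018 ± 0.074, both well within their errors. Without control replicate 1, 6 of 9 were negative with pA-VMO, and without control replicate 2, 7 of 9 were with 5'ss-VMO. The 2 comparisons share the control arrays, so these counts are not independent of each other. The members were chosen with earlier results of these data known, so the counts describe the set and do not test it. The median difference of the members was -0.25 after pA-VMO and -0.20 after 5'ss-VMO, against 0.013 and 0.001 over all genes tested. Without 5'ss-VMO replicate 2 the second was -0.12, with 3 members in place of 4 at an unadjusted limma p under 0.05. Both pA-VMO arrays lay below both control arrays for 6 members (18.8% of all genes), and both 5'ss-VMO arrays did for 5 members (21.5% of all genes). At an unadjusted limma p under 0.05, 5 members were lower with pA-VMO (5.23% of all genes) and 4 with 5'ss-VMO (6.19%). By the same limma p 0 members were higher with either reagent, where 6.22% and 7.72% of all genes were. The mean log2 value over the 9 members was 9.03 and 9.13 on the pA-VMO arrays, 9.13 and 9.13 on the 5'ss-VMO arrays, and 9.32 and 9.31 on the control arrays.

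Between pA-VMO and 5'ss-VMO, reagents meant to shift Pdgfra polyadenylation in opposite directions, 0 of the 9 members passed the test, where 0.0602% of all genes did. At an unadjusted limma p under 0.05 there was 1 member, Cd55, lower with pA-VMO (7.11% of all genes). The members' median difference was -0.034 and that of all genes 0.004. The 95% intervals of the other 8 members all included 0 and lay within -0.29 to 0.25, so differences of that size between the reagents are not excluded. Pdgfra itself lay at 11.29 and 11.32 after pA-VMO, 11.31 and 11.29 after 5'ss-VMO, and 11.37 and 11.24 in control cells, on a probe set that does not separate its transcripts.

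Across the 6 arrays Dpp4, Sema3c, Cd34, Clec3b and Cd55 varied together, with every pair at 0.704 or above. Pearson's r of log2 values was 0.964 for Dpp4 with Sema3c, 0.951 for Cd34 with Sema3c and 0.919 for Dpp4 with Cd34. It was 0.897 for Cd34 with Cd55, 0.839 for Sema3c with Cd55 and 0.806 for Dpp4 with Clec3b. It was 0.88 for Sema3c with Clec3b. For Pi16 it was 0.778 with Clec3b, 0.715 with Sema3c, 0.645 with Cd55, 0.611 with Cd34 and 0.564 with Dpp4. Anxa3 correlated negatively with 7 of the other 8 members, down to -0.874 with Cd34, and at 0.007 with Cd248. Over all 36 pairs the median r was 0.412, and 25 were positive. These are descriptions over 6 arrays in 3 groups, in which any genes that differ between treated and control cells correlate.

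A further 20 genes that are associated with Dpp4+ or Pi16+ fibroblasts in other data were listed as companions. They too were chosen with earlier results of these data known. Fbn1, Ly6a and Ly6c1 had no probe set annotated with that symbol alone, and the other 17 were tested. With pA-VMO 12 of 17 had a negative difference with a median of -0.14, and with 5'ss-VMO 15 of 17 with a median of -0.13 (44.8% and 49.6% of all genes were negative). Of the 17, 0 rose and 0 fell by limma in any comparison. At an unadjusted p under 0.05, 6 were lower after pA-VMO (5.23% of all genes) and 5 after 5'ss-VMO (6.19%), and 0 were higher in either. The mean level of the 17 was 8.39 and 8.42 on the pA-VMO arrays, 8.41 and 8.38 on the 5'ss-VMO arrays, and 8.53 and 8.52 on the control arrays, so the groups treated with either reagent did not overlap with control.

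Of the companions, Efhd1, a calcium-binding protein of mitochondria, was nearest in size to Dpp4. It was at 6.29 and 6.55 after pA-VMO, 6.44 and 6.41 after 5'ss-VMO, and 6.91 and 6.84 in control cells, and lay at -0.45 ± 0.088 with either reagent (limma adjusted p = 0.204 and 0.0707). Igfbp6, which binds insulin-like growth factor 2, lay at -0.28 and -0.27 (limma adjusted p = 0.228 and 0.117). With pA-VMO, Ugp2, an enzyme that makes UDP-glucose, lay at -0.25 and Ackr3, a scavenger receptor for the chemokine CXCL12, at -0.27 (limma adjusted p = 0.251 and 0.311). With 5'ss-VMO, the matrix protein Efemp1 lay at -0.29 and Pcolce2, which enhances procollagen processing, at -0.20 (limma adjusted p = 0.113 and 0.257). Between the reagents Pcolce2 and Efemp1 lay at 0.22 and 0.15, higher with pA-VMO, Bmp7 at 0.15 and the hyaluronan synthase Has1 at -0.17 (limma adjusted p = 0.177 to 0.335).

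The genes most like each member in profile were sought among the genes tested, with the members themselves left out. Symbols of predicted or clone-derived genes, small RNAs and olfactory or vomeronasal receptors were left out too. Likeness was the root mean square distance between log2 values centred on each gene's mean over the 6 arrays. For Dpp4 these were Efhd1 at a distance of 0.055, Elovl7 at 0.074 and Car5b at 0.083. The same 3 genes were nearest to Sema3c, with Efhd1 at 0.049, Car5b at 0.057 and Elovl7 at 0.061. Efhd1 is also on the list of companions, while Elovl7 is a fatty acid elongase and Car5b a mitochondrial carbonic anhydrase. Nearest to Cd55 were C1qtnf1 at 0.067, Znrd1as at 0.076 and Glcci1 at 0.079. Nearest to Cd34 were Lbp and Vat1 at 0.024 and Ecm1 at 0.029, and nearest to Clec3b were Scrn1 at 0.023, Agtrap at 0.031 and Rtl8c at 0.032. For Pi16 they were Slc38a9 at 0.02, Rab35 at 0.027 and Anp32-ps at 0.028. Cd248, Mfap5 and Anxa3 ranged over 0.151, 0.168 and 0.107 log2 units in all, so that many genes lie close to them (the nearest were Ube4b, Nip7 and Ran).

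**Figure D3:**
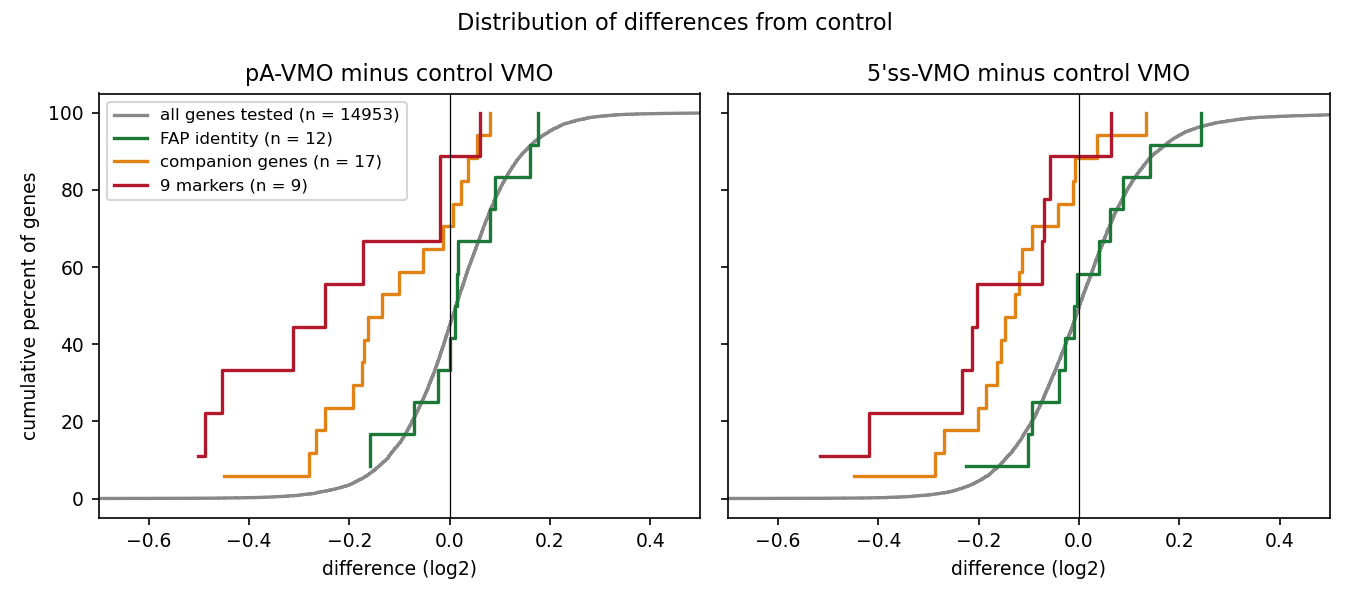
Cumulative percent of genes against the difference from control (log2), with pA-VMO at left and 5'ss-VMO at right, for the 9 markers, the 17 companion genes, 12 FAP identity genes and all 14953 genes tested. The markers have the lowest medians of the 4 sets, -0.25 and -0.20, while those of the companions are -0.14 and -0.13. The curves of markers and companions cross in both panels, with pA-VMO only at the upper end, between 0.054 and 0.061. The medians of FAP identity genes are 0.012 and -0.007.

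Genes of FAPs in general were read beside the progenitor markers. The 12 FAP identity genes, which include Pdgfra, Pdgfrb and Dcn, had a median difference of 0.012 after pA-VMO and -0.007 after 5'ss-VMO, and 0 of 12 rose or fell by limma. Their mean level was 10.27 and 10.26 on the pA-VMO arrays, 10.27 and 10.25 on the 5'ss-VMO arrays, and 10.27 and 10.24 on the control arrays, so the groups overlapped. Osr1, a transcription factor of FAPs, lay at -0.16 after pA-VMO and -0.22 after 5'ss-VMO (limma adjusted p = 0.478 and 0.257). Hic1, a repressor found in quiescent FAPs, lay at 0.24 with 5'ss-VMO, and -0.23 between pA-VMO and 5'ss-VMO (limma adjusted p = 0.244 and 0.227). With pA-VMO the integrin gene Itgav lay at 0.17, Tcf4 at -0.16 and Tcf21 at 0.16 (limma adjusted p = 0.407, 0.432 and 0.465), and with 5'ss-VMO Pdgfrb lay at 0.14 and Dcn at -0.093 (limma adjusted p = 0.414 and 0.553). Between the reagents Tcf21 lay at 0.26 (limma adjusted p = 0.162).

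A list of 16 genes of the other main fibroblast state, marked by Col15a1 and Cxcl14 and linked to fat formation, had medians nearer 0 than the 9 markers, -0.051 after pA-VMO and -0.033 after 5'ss-VMO. Of its members 0 rose or fell by limma. Its mean level was 9.20 and 9.17 on the pA-VMO arrays, 9.19 and 9.11 on the 5'ss-VMO arrays, and 9.22 and 9.23 on the control arrays, so all treated arrays lay below both control arrays here too. Negative differences were seen for 9 of 16 after pA-VMO and 12 of 16 after 5'ss-VMO (44.8% and 49.6% of all genes). At an unadjusted limma p under 0.05, 3 were lower and 1 higher with pA-VMO, and 4 lower and 0 higher with 5'ss-VMO. A lower level was thus not particular to the 9 markers. Gdf10, a BMP-related ligand, lay at -0.37 after pA-VMO and -0.40 after 5'ss-VMO (limma adjusted p = 0.228 and 0.0831). Lum lay at -0.19 and -0.33 (limma adjusted p = 0.314 and 0.0636). With pA-VMO Fabp4, a fatty acid carrier of adipocytes and vessels, lay at 0.33 and the lipocalin Apod at -0.17 (limma adjusted p = 0.295 and 0.415). With 5'ss-VMO Hsd11b1 lay at -0.22 and Fmo2 at -0.18 (limma adjusted p = 0.327 and 0.352). Between the reagents Hsd11b1 lay at 0.24 (limma adjusted p = 0.25).

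The mean levels of activated fibroblast, macrophage, endothelial and pericyte genes lay above control beside the lower progenitor markers, and those of myogenic genes did with 5'ss-VMO alone. For macrophage and endothelial genes the 2 control arrays lay further from each other than control replicate 2 lay from the nearest treated array. The mean level of 12 activated fibroblast genes was 11.07 and 11.10 after pA-VMO, 11.15 and 11.20 after 5'ss-VMO, and 11.01 and 10.94 in control cells, with no overlap. Of the 12, 4 were negative after pA-VMO and 0 after 5'ss-VMO, where 44.8% and 49.6% of all genes were. Tnc, the matrix protein tenascin C, rose by 0.38 ± 0.062 with 5'ss-VMO (limma adjusted p = 0.0386; up to 0.195 with 1 array left out) and lay at 0.21 with pA-VMO (limma adjusted p = 0.304).

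The 12 macrophage markers, all above the filter, had a mean level of 6.90 and 6.88 after pA-VMO, 7.02 and 6.98 after 5'ss-VMO, and 6.63 and 6.83 in control cells, again with no overlap. Of these 12, 2 were negative after pA-VMO and 0 after 5'ss-VMO. With 5'ss-VMO C1qc and C1qa, subunits of the complement protein C1q, rose by 0.50 and 0.39 (limma adjusted p = 0.0249 and 0.0472; up to 0.16 and 0.234 with 1 array left out). With pA-VMO Cd68 lay at 0.35 and Adgre1 at 0.27 (limma adjusted p = 0.204 and 0.372).

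Endothelial cells express Cd34 too. The mean level of 10 endothelial genes was 6.09 and 6.05 after pA-VMO, 6.14 and 6.11 after 5'ss-VMO, and 5.85 and 6.01 in control cells, and 9 of the 10 were above the filter. Of those 9, 2 were negative after pA-VMO and 4 after 5'ss-VMO, the second close to the 49.6% of all genes. Cdh5, the cadherin of endothelial junctions, rose by 0.70 with 5'ss-VMO (limma adjusted p = 0.00551; up to 0.0659 with 1 array left out), and Pecam1 lay at 0.47 (limma adjusted p = 0.0517). With pA-VMO they lay at 0.29 and 0.28 (limma adjusted p = 0.251 and 0.308). Tek went the other way, with means of 7.09 after pA-VMO, 7.10 after 5'ss-VMO and 7.29 in control cells, and no overlap with control.

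The 7 pericyte genes had mean levels of 6.90 to 6.99 with pA-VMO, 6.95 to 6.97 with 5'ss-VMO and 6.79 to 6.84 in control cells, and Mcam rose by 0.42 with 5'ss-VMO (limma adjusted p = 0.0443; up to 0.234 with 1 array left out). The 7 myogenic genes had mean levels of 6.44 to 6.47 with pA-VMO, 6.69 to 6.82 with 5'ss-VMO and 6.36 to 6.51 in control cells, and Chrna1, a muscle acetylcholine receptor subunit, rose by 0.62 with 5'ss-VMO (limma adjusted p = 0.0283; up to 0.201 with 1 array left out). Of 7 tendon genes, Kera fell by 1.32 after pA-VMO and by 0.69 after 5'ss-VMO (limma adjusted p = 0.0232 and 0.0474; up to 0.261 and 0.239 with 1 array left out), and the medians of the list were 0.03 and -0.022. The mean level of the tendon genes was 8.44 and 8.50 on the pA-VMO arrays, 8.55 and 8.72 on the 5'ss-VMO arrays, and 8.78 and 8.69 on the control arrays, so those of pA-VMO lay below control. Among 3 Schwann cell genes, 0 were called by limma and all were negative in both comparisons with control. The part of these shifts in the lower level of the progenitor markers was not tested.

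T cells carry Dpp4 as well, and neutrophils express Anxa3. Of 7 lymphocyte genes on the array, 3 were below the filter (Cd3d, Cd3g and Cd79a), and of 6 neutrophil genes 4 were (S100a8, Ly6g, Cxcr2 and Retnlg). The mean level of the lymphocyte genes was 5.32 and 5.25 after pA-VMO, 5.20 and 5.20 after 5'ss-VMO, and 5.24 and 5.21 in control cells. That of the neutrophil genes was 4.68 and 4.66 after pA-VMO, 4.58 and 4.65 after 5'ss-VMO, and 4.57 and 4.61 in control cells, below the filter on dim genes on all arrays. Cd3e, of the T cell receptor complex, lay at 0.24 after pA-VMO and -0.091 after 5'ss-VMO (limma adjusted p = 0.377 and 0.699). The part of T cells in the lower level of Dpp4 was not tested.

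**Figure D4:**
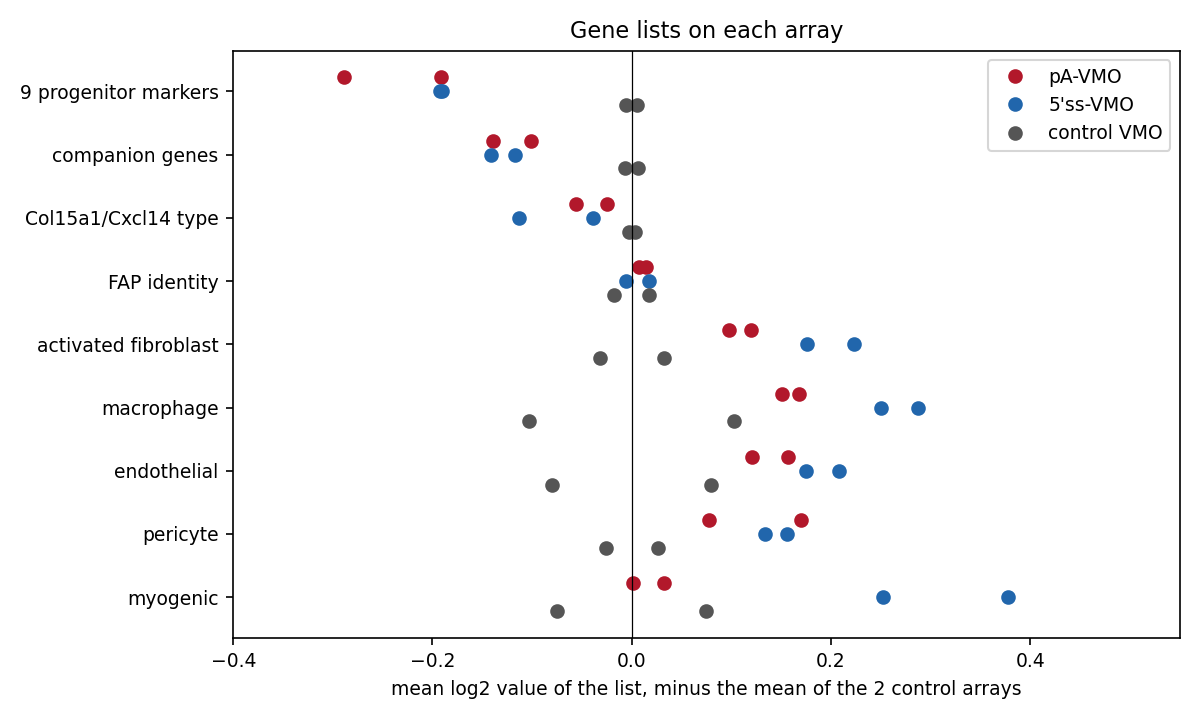
Mean log2 value of each gene list on each array, minus the mean of the 2 control arrays, with pA-VMO, 5'ss-VMO and control VMO from top to bottom within a list. The progenitor markers, their companions and the Col15a1 and Cxcl14 list lie below control with both reagents, FAP identity genes overlap with control, and activated fibroblast, macrophage, endothelial and pericyte genes lie above it.

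How firmly the members were called turned in part on how the spread was shared between genes, beside the filter and the arrays kept. With a spread that is allowed to depend on the level of the gene (an intensity trend), 3 members passed with pA-VMO, Sema3c (limma adjusted p = 0.0132), Dpp4 (0.0307) and Cd55 (0.0326), where 0.341% of all genes did. The same setting called Dpp4 and Sema3c with 5'ss-VMO (limma adjusted p = 0.00403 and 0.00658), where 1.78% of all genes were called. The differences are the same in both settings, and only the error assigned to them changed. With 2 arrays against 2, an exact permutation test cannot give a p below 0.333.

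**Figure D5:**
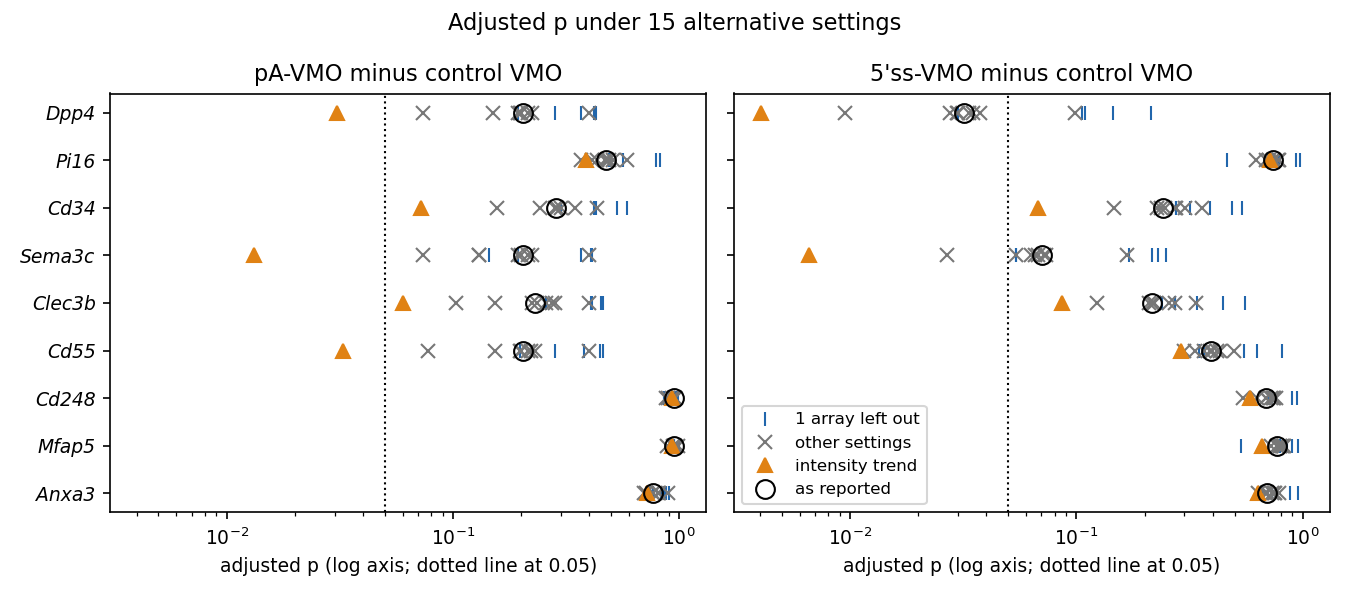
Adjusted p (limma, log axis) of each marker for pA-VMO and 5'ss-VMO against control as reported and under 15 alternative settings; the dotted line marks 0.05. Dpp4, Sema3c and Cd55 cross the line with an intensity trend for pA-VMO, and leaving out an array moves Dpp4 to between 0.106 and 0.213 for 5'ss-VMO.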

How the data were processed

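RNA of 6 samples was read on Affymetrix Mouse Gene 1.0 ST arrays. Per the labels' protocols, biotin-labelled cDNA was made from 100 ng of total RNA. The deposited values are log2 values made by the authors with RMA in Affymetrix Expression Console, per the submitters' processing notes. Their version and settings were not given in the sources used. The method makes arrays alike and compresses changes of dim probe sets. Array medians ran from 5.958 to 6.001, and no scan batch could be tested.

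Of 35556 probe sets, 21789 have 1 symbol, 1621 several and 12146 none. The brightest probe set stood for a gene, and the dimmest genes, those under the 25th percentile of gene means, were left out. Differences came from limma 3.58.1 (R 4.3.3), fitted on all 6 arrays with a mean for each group (3 residual and 6.06 prior degrees of freedom, two-sided, Benjamini-Hochberg over 14953 genes, threshold 0.05). The steps were tested on simulated data. Recovery was required there only of changes wider than any difference of the members, so it does not bear on differences of their size. Intervals are 95% and from limma. Precision is limited by having 2 arrays a group: the median SE of a difference was 0.074. The p-values rest on the spread between pools of 4 mice within the groups, moderated by that of the other genes tested.

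The members, the 13 gene lists and the rule for named genes were chosen with earlier results of these data known. The rule takes all members, the called genes and up to 4 with the smallest p of the fibroblast lists, called genes of the marker lists, and the 3 nearest profiles of each member; of the further marker genes it allows, few are named. Same-numbered replicates did not deviate together over all genes tested (r = -0.102, 0.021 and -0.035). The labels do not say that a number marks a shared day, and these values cannot exclude one that touched few genes. Alternatives were the filter, the spread model, the arrays fitted, a replicate block, scaling, probe set averaging and leaving out each array.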

Additional observations from a re-analysis of the deposited data

How the results depend on the processing

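The number of members called was 0 with pA-VMO, 1 with 5'ss-VMO and 0 between the reagents. With pA-VMO it was 3 with an intensity trend and 0 under the other 14 settings. With 5'ss-VMO it was 0 with no filter on dim genes, 2 with a filter at the median of named genes, 2 with an intensity trend, and 0 to 1 with an array left out. Between the reagents it was 0 throughout. The count over all genes with pA-VMO was 1, against 0 with no filter, 51 with an intensity trend and 0 to 2 with an array left out. With 5'ss-VMO it was 87, against 24 with no filter, 181 with the filter at the median, 266 with an intensity trend and 8 to 76 with an array left out. Between the reagents it was 9, against 3 with no filter, 102 with the filter at the median, 197 with an intensity trend, 111 with arrays centred on the median, 5 with quantile normalization, 15 with all probe sets averaged and 1 to 18 with an array left out. Between the reagents the split of all genes called was 2 higher with pA-VMO and 7 lower, against 12 and 99 with centred arrays. The cause of these shifts was not tested. With the replicate block the members called were 0, 1 and 0 and the genes called 1, 90 and 23 in the 3 comparisons. A block with crossed numbers for pA-VMO and control, added after seeing the data, called 0 members and 1 gene. Of 405 refits of the members' differences, 13 changed sign, each for a difference that no setting called. With 1 array left out, the lone array is assumed to vary like the others.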

Other observations

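The 2 arrays of a group were not equally close for these genes. Replicate 2 lay above replicate 1 for 6 of the 9 members with pA-VMO, 5 with 5'ss-VMO and 2 in control cells. The share of all genes that did so was not counted. With pA-VMO the members had a median gap of 0.122 and the widest, 0.237, for Cd55, where the median gap over all genes tested was 0.073. With 5'ss-VMO the median gap of the members was 0.088 and in control cells 0.071, against 0.076 and 0.08 over all genes. Without pA-VMO replicate 1 the members' median difference from control was -0.19, and without pA-VMO replicate 2 it was -0.31, with 7 and 8 of 9 members negative.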
